A study of Mus musculus with 10 samples.

Results

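The gene Nt5e and 9 further genes of extracellular adenosine handling were described in heart muscle cells sorted from mice 5 days after a myocardial infarction. The 10 genes were chosen by symbol from the 56832 genes of the deposited table, with earlier results of these data known, and their values in GFP+ and GFP- cells are therefore given as a description without a test. All 10 were in the table, and 9 of the 10 had enough counts to enter the fit over 12115 genes, the exception being Adora2b. They are the ectonucleotidases Nt5e and Entpd1, the endoplasmic reticulum enzyme Entpd5 and the adenosine receptors Adora1, Adora2a and Adora2b. The others are the transporter Slc29a1 and the intracellular enzymes Ada, Adk and Ampd3.

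The libraries came from 5 Sprr1a-GFP mice, numbered 21A4, 21A5, 21A7, 17C1 and 17C2, that underwent infarction at 12 weeks of age. Every heart was digested by Langendorff perfusion, in which enzyme solution is driven through the coronary vessels, and its muscle cells were sorted for the fluorescent reporter named after Sprr1a. The GFP+ cells, called border zone cardiomyocytes in the labels, gave 1 library per mouse, and the GFP- cells, called remote zone cardiomyocytes, gave another. All 10 titles carry the tag Hetz, every animal had an infarct, and libraries of uninjured hearts were not analysed here. The titles of GFP+ libraries name both the DAPI-negative and the DAPI-positive fraction, whereas those of GFP- libraries name the DAPI-negative fraction alone. DAPI is a dye taken up by cells with leaky membranes, so the dye gate and the GFP sort cannot be told apart. How the reporter was built is not given in the sources used here.

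ATP and ADP that leave stressed or dying cells are cut to AMP on the cell surface by Entpd1 and then to adenosine by Nt5e, and adenosine acts on its receptors until it is taken up through Slc29a1. Inside the cell adenosine is turned back into AMP by Adk or deaminated to inosine by Ada, and Ampd3 deaminates AMP before it can become adenosine. In the heart adenosine slows conduction, dampens the adrenergic drive of muscle cells through Adora1, and widens coronary vessels mainly through Adora2a.

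Total counts were 12244373 to 38879965 per library, of which 3417972 to 16918067 lay outside mitochondrially encoded genes. For mouse 21A7 these genes made up 91.2% of the GFP+ reads (95% Wilson interval 91.20 to 91.22), against 9.20% of the GFP- reads (9.18 to 9.21), intervals that cover counting error only. Their share was also higher in the GFP+ library of 21A4 and 21A5 and lower in that of 17C1 and 17C2. With mitochondrial genes removed before scaling the mean log2 ratio of Nt5e was 1.78. TMM rests on trimmed ratios over many genes, so removing these few could change little. The value is therefore no test of whether the mitochondrial share matters. Sprr1a, the gene that names the reporter, had 1452 to 6903 counts in GFP+ and 10 to 406 in GFP- libraries, so the sort and the labels point the same way in all 5 mice. The 10 cardiomyocyte markers were detected in every library, with sums of 9640 to 33500 CPM in GFP+ and 3660 to 44700 CPM in GFP- libraries. CPM are counts scaled to a common library size, after a TMM correction for library composition. The 9 fibroblast markers summed to 264 to 5130 CPM in GFP+ and 131 to 12100 CPM in GFP- libraries, and the lymphocyte markers Cd3e, Cd3g and Ms4a1 were at 0 in all libraries. The 3 mice of the 21A series and the 2 of the 17C series have differently worded titles, and means within each series are given beside the log2 ratios of the 10 genes.

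Nt5e encodes CD73, the membrane-anchored enzyme that makes adenosine from extracellular AMP. With TMM scaling its level was higher in GFP+ than in GFP- cells of every mouse, and with library totals alone or scaled to cardiomyocyte markers it was higher in 4 of 5, the exception being 21A7. In GFP+ cells it had 15.0, 15.6, 13.6, 34.6 and 15.5 CPM in mice 21A4, 21A5, 21A7, 17C1 and 17C2, against 3.26, 4.82, 5.46, 5.74 and 7.01 CPM in their GFP- cells. On the TMM scale the groups did not overlap, the lowest GFP+ library standing above the highest GFP- library, and the GFP+ library of 17C1 stood apart from the other 4. Between 89 and 339 reads stood behind each of these values. The means were 18.8 ± 8.84 CPM in GFP+ and 5.26 ± 1.37 CPM in GFP- cells (SD, n = 5 each). Within mice, the log2 ratio of GFP+ over GFP- averaged 1.77 ± 0.60 (SD, n = 5), with a mean of 1.86 among 17C mice and 1.72 among 21A mice. With library totals alone the mean was 0.62, the groups overlapped, and mouse 21A7 had 3.27 CPM in GFP+ against 17.9 CPM in GFP- cells. These are libraries of many cells, in which a change in the number of cells of one type and a change of RNA per cell cannot be told apart.

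The stretch upstream of Nt5e is shown because Nt5e had the larger mean log2 ratio of the 2 members that were higher in GFP+ cells of all 5 mice under TMM scaling. It is taken from RefSeq, build GRCm38.p6, chr9:88327359-88327608, plus strand, and covers the 250 bases before the annotated start, with 72% G or C. Capitals mark matches to the GC box GGGCGG on either strand, here all on the reverse strand as CCGCCC.
Nt5e upstream: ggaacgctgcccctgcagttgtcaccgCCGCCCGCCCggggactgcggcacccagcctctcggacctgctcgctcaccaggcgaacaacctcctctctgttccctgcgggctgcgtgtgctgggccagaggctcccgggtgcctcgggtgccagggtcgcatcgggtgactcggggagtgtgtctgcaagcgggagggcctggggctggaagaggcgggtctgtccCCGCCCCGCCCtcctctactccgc
The 4 matches lie 223 to 218, 219 to 214, 24 to 19 and 19 to 14 bases before the start, so that each neighbouring pair overlaps. A GC box is common, being present in 32.7% of 32851 mouse windows of the same length. The other motifs searched on both strands were the hypoxia core ACGTG (16.6% of windows), the cyclic AMP element TGACGTCA (1.55%), the AP-1 motif TGACTCA (4.46%) and the TEAD motif GGAATG (12.6%), and their letters are not in this window. The hypoxia core and the cyclic AMP element can share bases. A match is a description of the letters, not of a bound factor or a cause.

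**Figure D1:**
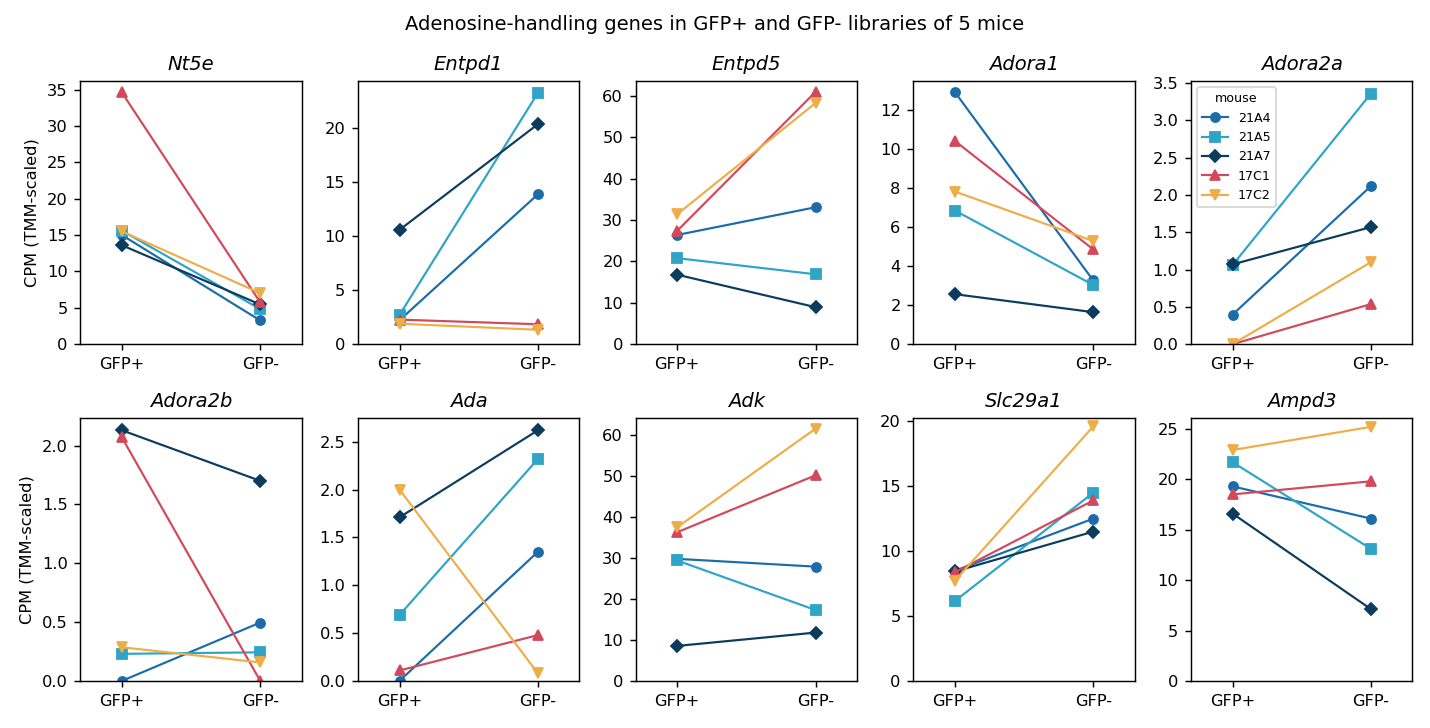
Level of each of the 10 genes in CPM (counts at a common library size, TMM-scaled) in the GFP+ library and the GFP- library of 5 mice, with 1 line per mouse and an axis of its own for each gene. Nt5e lies at 13.6 to 34.6 CPM in GFP+ and 3.26 to 7.01 CPM in GFP- libraries, and Slc29a1 at 6.15 to 8.48 CPM in GFP+ and 11.5 to 19.6 CPM in GFP- libraries, while the other genes overlap between the groups.

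Entpd1 encodes CD39, which supplies the AMP that Nt5e uses and is abundant on endothelial cells and leukocytes. Its values were 2.22, 2.71, 10.6, 2.28 and 1.90 CPM in the GFP+ cells of 21A4, 21A5, 21A7, 17C1 and 17C2, against 13.9, 23.3, 20.4, 1.85 and 1.34 CPM in their GFP- cells. The GFP- libraries of the 21A mice were the 3 highest, and both 17C mice had low values in both groups. The mean log2 ratio was -1.17 ± 1.63 (SD, n = 5), made up of -2.21 among 21A mice and 0.39 among 17C mice, a difference between series that was not tested. The 8 endothelial markers summed to 463 to 513 CPM in those 3 GFP- libraries and to 38.2 to 270 CPM in the other 7. The 9 macrophage markers summed to 288 to 647 CPM there, to 310 CPM in the GFP+ library of 21A7, and to 20.6 to 81.7 CPM in the other 6. Over all mice the endothelial sums were 38.2 to 270 CPM in GFP+ and 65.8 to 513 CPM in GFP- libraries, and the macrophage sums 20.6 to 310 CPM in GFP+ and 20.6 to 647 CPM in GFP- libraries. The part of endothelial cells and macrophages in the Entpd1 values was not tested.

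Nt5e was set beside the fibroblast and mesothelial marker lists. Its GFP- levels of 3.26 to 7.01 CPM covered fibroblast sums from 131 to 12100 CPM, and its GFP+ levels were 15.0, 15.6 and 13.6 CPM in the 21A mice, whose GFP+ fibroblast sums were 1760 to 5130 CPM, against 34.6 and 15.5 CPM in the 17C mice with sums of 264 and 316 CPM. The 7 mesothelial markers summed to 100 to 415 CPM in GFP+ and 2.15 to 215 CPM in GFP- libraries, higher in the GFP+ library in 5 of 5 mice, with 5 of the 7 genes higher in all 5. Of the 8 marker lists, this was the 1 list whose sum was higher in GFP+ in every mouse. None of its 7 genes passed the edgeR threshold with or without the mouse as a block. In the GFP- library of 17C1, 4 of the 7 mesothelial markers were at 0. The part of fibroblasts and of mesothelial cells in the Nt5e values was not tested.

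**Figure D2:**
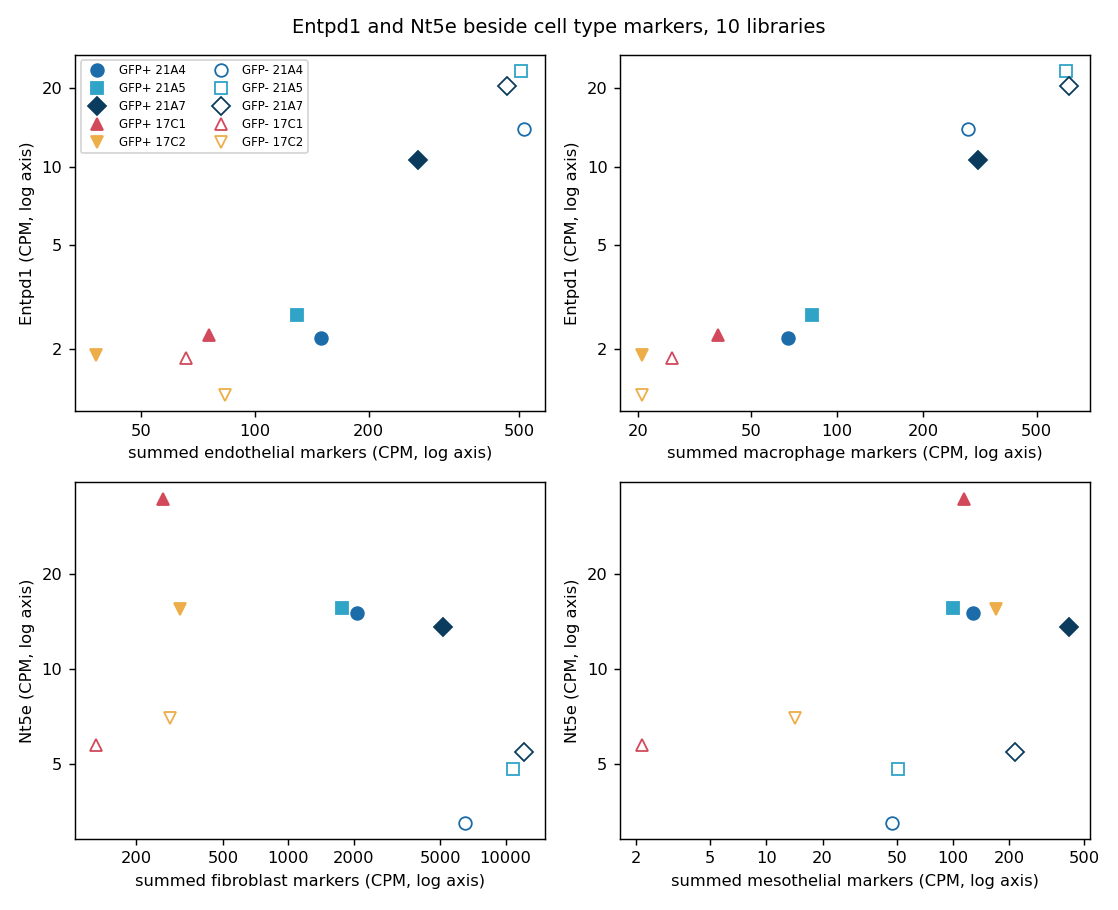
Entpd1 (top) and Nt5e (bottom) in CPM against summed markers of 4 cell types in CPM, both axes logarithmic, with filled symbols for GFP+ and open symbols for GFP- libraries of 5 mice. The 3 GFP- libraries of the 21A mice lie at 13.9 to 23.3 CPM of Entpd1 and 463 to 513 CPM of endothelial markers, and Nt5e lies at 13.6 CPM or above in all GFP+ libraries, whose fibroblast sums run from 264 to 5130 CPM.

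Entpd5, an enzyme of the endoplasmic reticulum that removes phosphate from UDP and GDP during glycoprotein folding, had the highest length-adjusted level of the 10 genes in both groups. It reached 26.4, 20.8, 16.8, 27.4 and 31.4 CPM in GFP+ cells of 21A4, 21A5, 21A7, 17C1 and 17C2, against 33.1, 16.9, 8.95, 61.0 and 58.3 CPM in GFP- cells. The 2 GFP- libraries of the 17C mice were the highest, and the groups overlapped. The mean log2 ratio was -0.24 ± 0.84 (SD, n = 5), or -1.02 among 17C mice and 0.29 among 21A mice.

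Adora1 encodes the inhibitory adenosine receptor of heart muscle. Its level was 12.9, 6.84, 2.56, 10.4 and 7.81 CPM in GFP+ cells of 21A4, 21A5, 21A7, 17C1 and 17C2, against 3.26, 3.03, 1.64, 4.85 and 5.28 CPM in GFP- cells. The GFP+ library was the higher one in 5 of 5 mice with TMM scaling, but the groups overlapped, because the GFP+ library of 21A7 lay below 4 of the GFP- libraries. The means were 8.12 ± 3.91 CPM in GFP+ and 3.61 ± 1.47 CPM in GFP- cells (SD, n = 5 each). The log2 ratio averaged 1.08 ± 0.56 with TMM scaling, or 0.83 among 17C mice and 1.24 among 21A mice. It was -0.04 when libraries were scaled by their totals alone, with 4 of 5 mice above 0 and 21A7 at -2.95.

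The RefSeq window of Adora1 (GRCm38.p6, chr1:134235458-134235707, minus strand, 64.4% G or C) is shown as that of the other member with a higher level in GFP+ cells of all 5 mice under TMM scaling. Capitals mark the reverse of the hypoxia core, CACGT, 129 to 125 bases before the start, and 3 adjoining GC boxes at 25 to 20, 19 to 14 and 13 to 8 bases, also on the reverse strand.
Adora1 upstream: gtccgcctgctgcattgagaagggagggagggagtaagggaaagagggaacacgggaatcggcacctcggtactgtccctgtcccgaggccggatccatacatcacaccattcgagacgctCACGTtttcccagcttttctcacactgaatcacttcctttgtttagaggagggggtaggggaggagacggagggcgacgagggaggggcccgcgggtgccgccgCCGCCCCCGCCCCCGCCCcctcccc
GC boxes within 25 bases of the start are in this window and that of Nt5e, and also in windows of Adk, Adora2b and Slc29a1. Neither printed window holds the cyclic AMP element, the AP-1 motif or the TEAD motif. A second RefSeq window of Adora1, not printed, holds the TEAD motif at 177 to 172 bases. RefSeq windows were found for 9 of the 10 genes, 21 windows in all, with none for Adora2a.

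Adora2a encodes the stimulatory adenosine receptor of vessels and immune cells, and its counts were low. It had 5, 23, 10, 0 and 0 reads in GFP+ cells of 21A4, 21A5, 21A7, 17C1 and 17C2, against 111, 152, 87, 9 and 14 reads in GFP- cells. In CPM this was 0.396, 1.06, 1.07, 0 and 0 in GFP+ cells, against 2.12, 3.36, 1.57, 0.538 and 1.10 in GFP- cells. GFP+ cells had the lower value in 5 of 5 mice, and the groups overlapped. A count of 0 allows up to 3 reads, which is 0.326 CPM in the GFP+ library of 17C1 and 0.286 CPM in that of 17C2. These limits cover counting error only. The mean log2 ratio of -2.22 ± 1.27 (SD, n = 5) depends on the count added before taking logarithms, being -3.03 with 0.5 and -1.70 with 5 in place of 2. With 2 it was -3.40 among 17C mice and -1.44 among 21A mice.

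Adora2b encodes the low-affinity stimulatory receptor, which responds to high adenosine. It had 0, 5, 20, 19 and 3 reads in GFP+ cells of 21A4, 21A5, 21A7, 17C1 and 17C2, against 26, 11, 94, 0 and 2 reads in GFP- cells. Its CPM lay between 0 and 2.13 in GFP+ and between 0 and 1.70 in GFP- libraries, and the mice went in opposite directions. In 17C1 it had 2.07 CPM in GFP+ cells against 0 reads in GFP- cells, which allows up to 0.179 CPM, and in 21A4 it had 0 reads in GFP+ cells, which allows up to 0.238 CPM, against 0.496 CPM in GFP- cells. The mean log2 ratio was 2.67 among 17C mice and -0.86 among 21A mice.

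Slc29a1 encodes ENT1, the equilibrative transporter that carries adenosine across the membrane in either direction. With TMM scaling it was lower in GFP+ than in GFP- cells of every mouse. Its level was 8.48, 6.15, 8.43, 8.37 and 7.71 CPM in GFP+ cells of 21A4, 21A5, 21A7, 17C1 and 17C2, against 12.5, 14.5, 11.5, 13.9 and 19.6 CPM in GFP- cells. The groups did not overlap, and the GFP- library of 17C2 was the highest of all. The means were 7.83 ± 0.989 CPM in GFP+ and 14.4 ± 3.14 CPM in GFP- cells (SD, n = 5 each), a log2 ratio of -0.86 ± 0.40 within mice, or -1.03 among 17C mice and -0.74 among 21A mice. It was -2.0 with library totals alone, below 0 in 5 of 5 mice, and scaled to cardiomyocyte markers it was below 0 in 4 of 5, with 17C1 at 0.73.

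Adk, the kinase that returns adenosine to AMP, had 29.8, 29.4, 8.54, 36.3 and 37.5 CPM in GFP+ cells of 21A4, 21A5, 21A7, 17C1 and 17C2, against 27.9, 17.3, 11.8, 50.2 and 61.6 CPM in GFP- cells. Mouse 21A7 had the lowest value in both groups and the 17C mice the highest. The log2 ratio of Adk averaged -0.16 ± 0.59 (SD, n = 5), and its sign differed between mice, with means of -0.59 among 17C mice and 0.13 among 21A mice.

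Ada, which deaminates adenosine, had low counts in most libraries. It had 0, 15, 16, 1 and 21 reads in GFP+ cells of 21A4, 21A5, 21A7, 17C1 and 17C2, against 71, 105, 145, 8 and 1 reads in GFP- cells. This was at most 2.0 CPM in GFP+ and 2.62 CPM in GFP- libraries, with the GFP+ value the lower one in 4 mice and the higher one in 17C2. Its mean log2 ratio was 1.07 among 17C mice and -2.13 among 21A mice, a difference that was not tested.

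Ampd3, an AMP deaminase, had 19.3, 21.7, 16.6, 18.5 and 22.9 CPM in GFP+ cells of 21A4, 21A5, 21A7, 17C1 and 17C2, against 16.1, 13.1, 7.12, 19.8 and 25.2 CPM in GFP- cells. Its GFP+ values lay within the range of its GFP- values. The log2 ratio averaged 0.39 ± 0.58 (SD, n = 5) with TMM scaling, positive in the 3 21A mice (mean 0.73) and slightly negative in the 2 17C mice (-0.12), and was -0.76 with library totals alone.

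**Figure D3:**
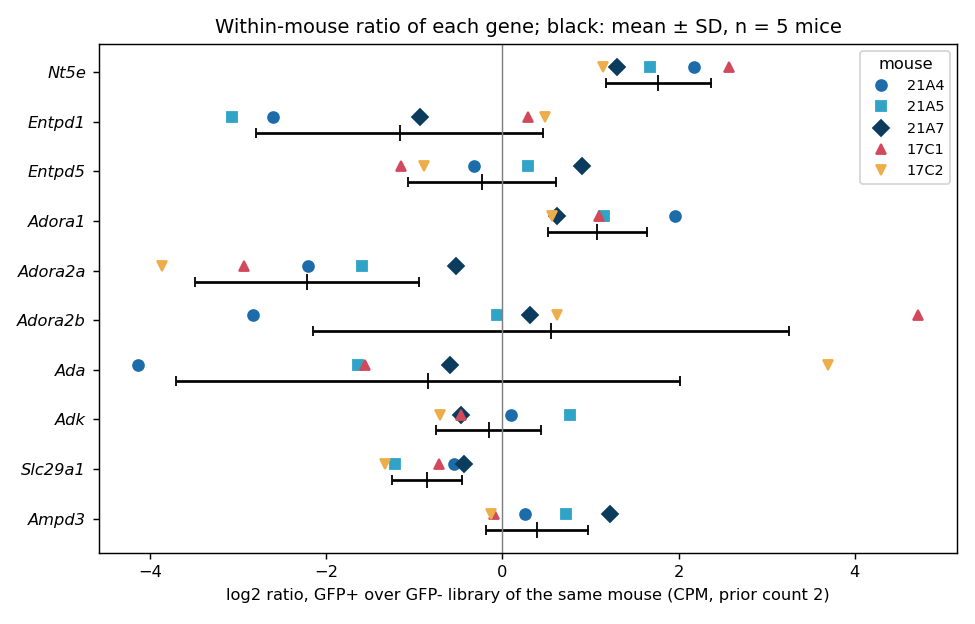
Log2 ratio of GFP+ over GFP- CPM (TMM scaling, prior count 2) of each gene in 5 mice, with the mean and SD in black. All 5 mice lie right of 0 for Nt5e and Adora1 and left of 0 for Adora2a and Slc29a1, while Entpd1 and Ampd3 part by identifier series, and with library totals alone the means of Adora1 (-0.04), Ampd3 (-0.76) and Adora2b (-0.52) change sign.

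The background over all genes was as follows. With edgeR's quasi-likelihood test at an adjusted p under 0.05, 10 of 12115 genes passed without the mouse as a block (0.0825%), and 991 had an unadjusted p under 0.05 (8.18%). Of the 9 tested members 0 passed in that fit, while DESeq2 called Nt5e and Slc29a1 among 205 genes (1.7% of 12074 with an adjusted p) and limma voom called Nt5e and Adora1 among 336 genes (2.77%). With the mouse as a block 104 genes passed (0.858%), and of the members Nt5e did, as higher in GFP+ cells. In the block fit DESeq2 called Nt5e, Adora1 and Slc29a1 among 886 genes (7.31%), and limma voom called Nt5e, Entpd1 and Adora1 among 1163 genes (9.6%). With edgeR and the block, Entpd1 was also called without a filter on low counts, among 818 of 26141 genes. It was called in the 21A series alone too, among 889 of 13221 genes. Entpd5 was called in the 17C series alone, among 1510 of 11107 genes. Nt5e also passed the edgeR block fit without mouse 17C1 (173 of 12519 genes called), but not without 21A4, 21A5, 21A7 or 17C2. Levels in the groups did not overlap in 186 genes that were higher in GFP+ (1.54%), among them Nt5e, and in 111 that were lower (0.916%), among them Slc29a1. The GFP+ library was higher in 5 of 5 mice for 1107 genes (9.14%), including Nt5e and Adora1, and lower in 5 of 5 for 972 genes (8.02%), including Adora2a and Slc29a1. Since the members were chosen with this contrast known, these counts are given as a description.

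The values above rest on TMM scaling. Scaling by library totals alone moved the median log2 ratio of all tested genes to -1.16, against -0.03 with TMM. Relative to that median Nt5e stood at 1.78, Adora1 at 1.12, Ampd3 at 0.40 and Slc29a1 at -0.84. When each mouse's ratios were instead scaled to its summed cardiomyocyte markers, an alternative chosen after seeing the data, the mean for Nt5e was 1.79 ± 1.55 (SD, n = 5). The 5 mice then spread from -0.10 in 21A7 to 4.03 in 17C1, with 4 of 5 above 0. The cardiomyocyte markers themselves had a log2 ratio of 0.19, 0.79 and 1.40 in 21A4, 21A5 and 21A7 and of -1.46 and -1.03 in 17C1 and 17C2. On that scale Adora2a stayed below 0 in 5 of 5 mice (mean -2.20 ± 0.52), Adora1 was above 0 in 4 of 5 (mean 1.10) and Slc29a1 below 0 in 4 of 5 (mean -0.83).

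Between genes, levels were compared per kilobase of exon, with lengths from an earlier mouse annotation, so the order is approximate. In GFP+ cells the order of mean CPM per kilobase was Entpd5 (4.06), Ampd3 (3.52), Adk (3.32), Nt5e (2.19), Slc29a1 (1.95), Adora1 (1.40), Entpd1 (0.705), Adora2b (0.511), Ada (0.450) and Adora2a (0.165). The means of neighbours in this order differed by less than the larger of their SDs over 5 libraries, except those of Adora1 and Entpd1. In GFP- cells the order was Entpd5 (5.90), Adk (3.96), Slc29a1 (3.59), Ampd3 (2.89), Entpd1 (2.18), Ada (0.685), Adora1 (0.624), Nt5e (0.611), Adora2a (0.568) and Adora2b (0.281), with no neighbours apart by more than the larger SD. Nt5e thus had the fourth highest mean in GFP+ and the eighth in GFP- cells. Among ectonucleotidases of the cell surface, Nt5e reached 1.58 to 4.02 CPM per kilobase in GFP+ libraries, where Entpd1 reached 0.341 to 1.89. In GFP- libraries Nt5e reached 0.379 to 0.815 and Entpd1 0.240 to 4.18 CPM per kilobase.

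**Figure D4:**
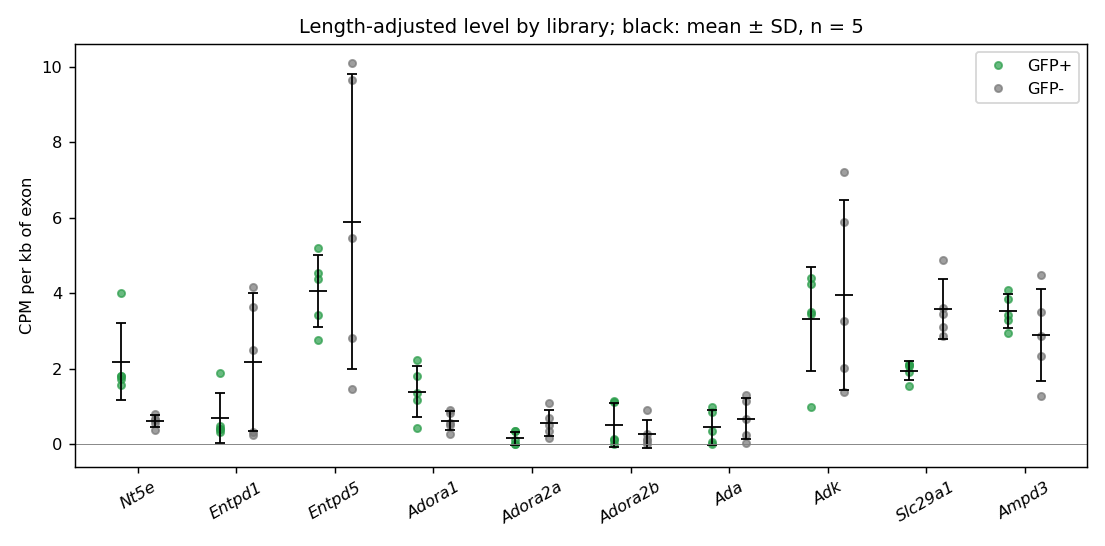
Level of each gene by library in CPM per kilobase of exon, with GFP+ libraries in green on the left and GFP- libraries in grey on the right of each pair, and black bars for mean and SD over 5 libraries. Nt5e averages 2.19 in GFP+ and 0.611 in GFP- libraries, and Slc29a1 averages 1.95 in GFP+ and 3.59 in GFP- libraries.

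The genes whose log2 CPM over the 10 libraries ran closest to that of Nt5e, among tested genes of at least 10 CPM, were Emp2 (Pearson r = 0.980), Psmd8 (0.961), Camk1 (0.949), Riok3 (0.948) and Zwint (0.948). Emp2 encodes a tetraspan membrane protein, Psmd8 a subunit of the proteasome lid, Camk1 a calcium-calmodulin kinase, Riok3 a RIO-family kinase and Zwint a kinetochore protein. These r values describe likeness over libraries of both groups and carry the shared difference between GFP+ and GFP- cells. Camk1 averaged 109 ± 44.9 CPM in GFP+ and 28.3 ± 4.35 CPM in GFP- cells, and Psmd8 50.6 ± 5.25 CPM in GFP+ and 28.8 ± 3.74 CPM in GFP- cells (SD, n = 5 each). Among the members, r with Nt5e was 0.69 for Adora1, -0.72 for Slc29a1, -0.77 for Adora2a and -0.54 for Entpd1.

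Of 67 further genes of purine release, breakdown, sensing and salvage, all were in the table, 4 were at 0 in every library and 42 were tested. None passed the edgeR threshold in either fit, while 3 of 42 without and 15 of 42 with the mouse as a block had an unadjusted p under 0.05, beside 991 (8.18%) and 1858 (15.3%) of the 12115 tested genes. DESeq2 called 0 without and 5 with the block, and limma voom 1 and 8. Their median log2 fold change was -0.12 without and -0.001 with the block, beside -0.07 and -0.04 over all tested genes. With TMM scaling the GFP+ library was higher in 5 of 5 mice for 4 of the 42 tested genes (Alpl, Nt5c2, Dpp4 and Hprt) and lower in 5 of 5 for 7 (Ank, Entpd6, P2ry1, P2ry6, Slc29a3, Slc28a2 and Adal), beside 9.14% and 8.02% of all tested genes. These genes were named after their values were seen.

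Among the 8 tested ectonucleotidases and ecto-phosphatases, 0 passed the edgeR threshold in either fit. DESeq2 with the block called Alpl, among 886 genes (7.31%). Limma voom called Alpl without the block, among 336 genes (2.77%), and Alpl, Cd38 and Enpp1 with it, among 1163 genes (9.6%). With edgeR and the block, Alpl was called without a filter (818 of 26141 genes) and with the stricter filter (122 of 6884). In the 21A series alone Alpl and Enpp1 were called (889 of 13221). Alpl, the tissue-nonspecific alkaline phosphatase that also splits AMP outside cells, had the highest mean level of them, at 10.1 to 30.5 CPM (median 21.3) in GFP+ and 3.40 to 14.5 CPM (median 6.73) in GFP- libraries. Its log2 fold change was 1.47 ± 0.28 (SE) with the block (edgeR adjusted p = 0.0572) and 1.42 ± 0.41 without it (adjusted p = 0.321). It was higher in GFP+ in 5 of 5 mice, with a mean log2 ratio of 0.89 among 17C mice and 1.82 among 21A mice. Enpp1, which splits ATP into AMP and pyrophosphate, averaged 5.69 ± 3.70 CPM in GFP+ and 15.1 ± 13.6 CPM in GFP- cells (block log2 fold change -0.87 ± 0.43, edgeR adjusted p = 0.393).

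Of the 4 tested genes of ATP and pyrophosphate release, 0 passed the edgeR threshold over all 5 mice. With edgeR and the block, Ank was called in the 17C series alone (1510 of 11107 genes) and Gja1 in the 21A series alone (889 of 13221). Gja1, the ventricular connexin whose hemichannels can release ATP, averaged 251 ± 68.9 CPM in GFP+ and 178 ± 109 CPM in GFP- cells (SD, n = 5 each; edgeR block adjusted p = 0.324). Ank, a transporter linked to ATP and pyrophosphate export, averaged 30.5 ± 13.5 CPM in GFP+ and 55.4 ± 34.2 CPM in GFP- cells, with an edgeR block adjusted p of 0.299 and a lower GFP+ value in 5 of 5 mice. Among the 6 tested receptors for ATP and other nucleotides, 0 passed. DESeq2 with the block called P2rx7, P2ry1 and P2ry6, among 886 genes (7.31%). Limma voom with the block called P2rx5, P2rx7 and P2ry6, among 1163 genes (9.6%). P2rx7 averaged 0.755 ± 0.744 CPM in GFP+ and 3.93 ± 4.06 CPM in GFP- cells. P2ry6 averaged 1.04 ± 1.74 CPM in GFP+ and 3.73 ± 3.02 CPM in GFP- cells. P2ry2, a receptor for ATP and UTP, averaged 10.2 ± 2.80 CPM in GFP+ and 9.05 ± 5.24 CPM in GFP- cells, and the channel P2rx4 averaged 5.23 ± 1.92 CPM in GFP+ and 7.37 ± 3.05 CPM in GFP- cells.

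The 3 tested nucleoside transporters besides Slc29a1 had block log2 fold changes below 0, and 0 passed the edgeR threshold in either fit. DESeq2 with the block called Slc29a3, among 886 genes (7.31%). With edgeR and the block, Slc29a3 was also called without a filter on low counts, among 818 of 26141 genes. Slc29a3, a transporter of lysosomes and mitochondria, averaged 2.0 ± 2.04 CPM in GFP+ and 5.47 ± 3.38 CPM in GFP- cells, with a block log2 fold change of -1.84 ± 0.48 (SE; edgeR adjusted p = 0.132). Slc28a2, a sodium-coupled transporter of purine nucleosides, averaged 2.43 ± 1.83 CPM in GFP+ and 4.60 ± 1.24 CPM in GFP- cells (-1.20 ± 0.46, edgeR adjusted p = 0.265). Both were lower in GFP+ in 5 of 5 mice.

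Over all 5 mice, edgeR with the filter on low counts gave no call for intracellular enzymes either. Limma voom with the block called Nt5c2 and Adssl1, among 1163 genes (9.6%). Within single series, edgeR with the block called Aprt and Hprt among 17C mice (1510 of 11107 genes called). Among 21A mice it called Adssl1 (889 of 13221). Of 6 tested cytosolic or mitochondrial nucleotidases 0 passed, with Nt5c2 at 22.3 ± 7.02 CPM in GFP+ and 14.8 ± 5.96 CPM in GFP- cells (edgeR block adjusted p = 0.275) and Nt5c3 at 8.82 ± 3.09 CPM in GFP+ and 9.43 ± 6.26 CPM in GFP- cells. Of 15 tested genes listed with the enzymes of adenosine, AMP and purine bases 0 passed. With edgeR and the block, Dpp4 of this list was called among 17C mice and, without a filter on low counts, among 818 of 26141 genes. Ahcyl1, a relative of the enzyme that frees adenosine from S-adenosylhomocysteine, averaged 31.1 ± 5.49 CPM in GFP+ and 35.4 ± 3.56 CPM in GFP- cells. Adssl1, the muscle enzyme that starts AMP resynthesis from IMP, averaged 35.7 ± 11.9 CPM in GFP+ and 24.5 ± 13.2 CPM in GFP- cells (edgeR block adjusted p = 0.283).

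**Figure D5:**
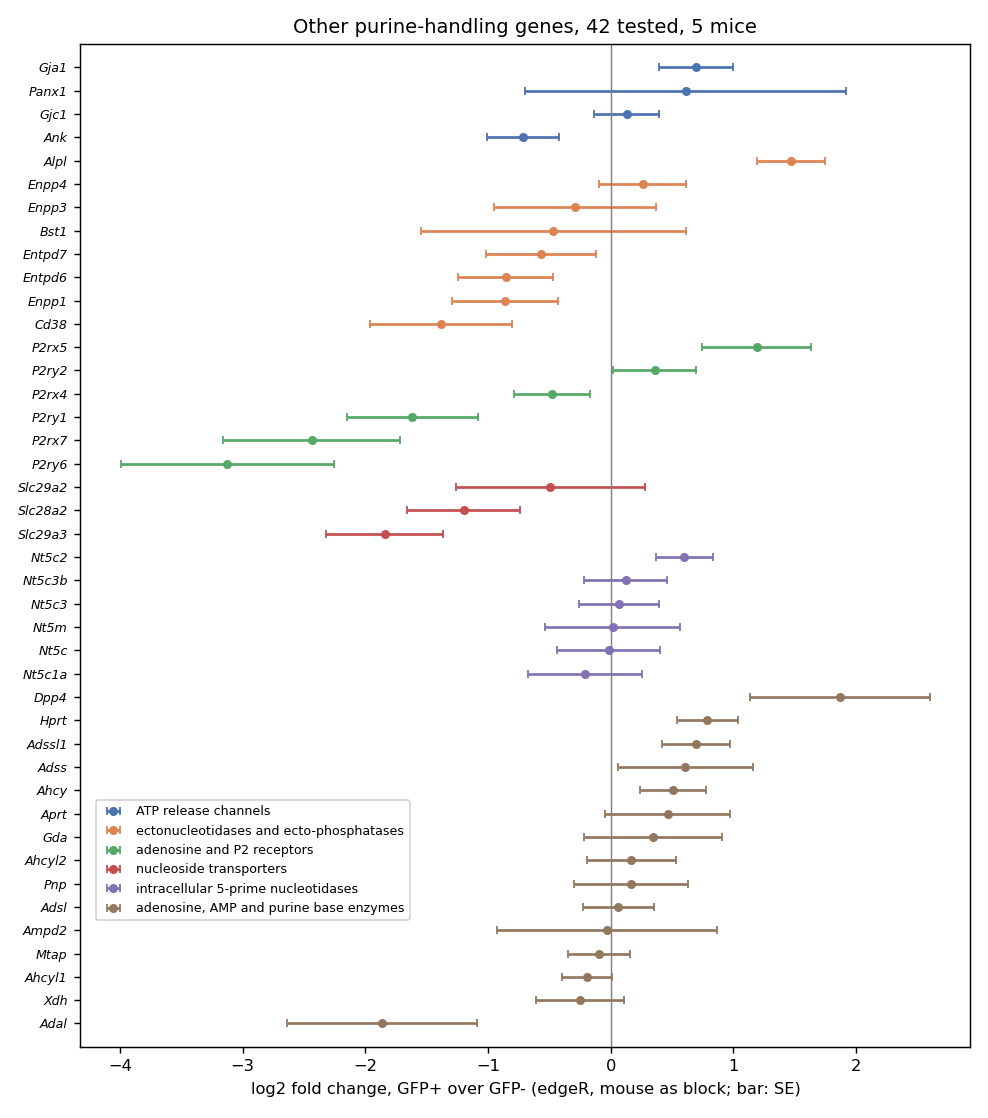
Log2 fold change of GFP+ over GFP- cells for the 42 tested genes of purine handling outside the 10 described, from edgeR with the mouse as a block over 5 mice, with bars of 1 SE and colours for 6 gene groups. Alpl stands at 1.47 ± 0.28, the 3 nucleoside transporters lie below 0, and 0 of the 42 passed an adjusted p of 0.05.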

How the data were processed

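Gene counts were analysed for sorted cardiomyocytes of 5 mice, 1 GFP+ and 1 GFP- library each. The authors deposited 1 table of raw read counts, whole numbers per gene without normalization, as its values show. Per the labels' protocols, RNA was amplified with a SMARTer Ultra Low kit and tagged with Nextera XT, a library kit without strand information. Molecular identifiers are not mentioned, so PCR copies count as reads. Build GRCm39 and the tools fastp 0.23.1, STAR 2.7.9a, featureCounts and Subread 2.0.1 are named in the submitters' processing notes. For the annotation release and multi-mapping reads, the choice made is not given in the sources used here.

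Libraries of a mouse were paired by the animal identifier in the titles. Their deviations from group means correlated over genes with r of 0.0741 to 0.637, and 0 pairs of libraries were identical. The two-sided quasi-likelihood test of edgeR 4.0.16 (R 4.3.3) was run on TMM-scaled counts after filterByExpr, with Benjamini-Hochberg adjustment over 12115 genes and a threshold of 0.05, without the mouse as a block as the primary fit and with it as the alternative. DESeq2 1.42.0, limma 3.58.1 (voom with quality weights), other scalings, filters, each identifier series alone and left-out libraries were further alternatives. Log2 ratios used log2 CPM with a prior count of 2. The fits were also run on simulated counts with set changes. The simulation had no differences between mice, so it cannot decide between the fits with and without the block.

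The members, the marker lists and the purine lists were chosen with earlier results of these data known. Named purine genes are those past the threshold and, in each of 6 groups, the 2 tested genes with the highest mean CPM. Genes with 1 direction in 5 of 5 mice, and some called by alternative fits, were added after their values were seen. Genes most like Nt5e are the 5 highest Pearson correlations among named genes of at least 10 CPM. Older symbols were matched by RefSeq synonyms (Adssl1 for Adss1, Adss for Adss2, Acpp for Acp3). Entpd4 and Entpd4b are near-identical copies whose counts are uncertain. Exon lengths came from GENCODE M21 of an earlier build, and upstream sequences from RefSeq GRCm38.p6. No coordinates were converted between builds.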

Additional observations from a re-analysis of the deposited data

Results flagged for a closer look

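In 3 of 30 sets of 5 values per gene (GFP+ CPM, GFP- CPM or log2 ratios of the 10 genes), 1 mouse stood far from the other 4 by Dixon's criterion, and chance flags about 1 in 20. Nt5e had 34.6 CPM in the GFP+ cells of 17C1, against 13.6 to 15.6 CPM in the GFP+ cells of the other 4 mice. Entpd1 had 10.6 CPM in the GFP+ cells of 21A7, against 1.90 to 2.71 CPM in those of the others. Adk had 8.54 CPM in the GFP+ cells of 21A7, against 29.4 to 37.5 CPM in those of the others.

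For 2 genes every 17C mouse moved one way and every 21A mouse the other, with TMM scaling. The share of all tested genes that part in this way was not counted. Entpd1 had a mean log2 ratio of GFP+ over GFP- of 0.39 in the 2 17C mice and -2.21 in the 3 21A mice. Ampd3 had -0.12 among 17C mice and 0.73 among 21A mice. With library totals alone its ratio was -0.007 in 17C1 and 0.098 in 17C2, and the 21A mice differed in sign, so its split was lost. These differences between series were not tested.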

How the results depend on the processing

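The 10 log2 ratios were recomputed under 15 settings each (13 for Adora2b), and 142 of 148 values moved by less than 1 SD over the mice. Means without 1 mouse, or among 21A mice, reuse ratios of the same 5 mice and cannot move that far. For those settings the count is therefore no sign of stability. All 6 exceptions came with library totals alone, which gave 0.62 for Nt5e and reversed Adora1 (-0.04) and Ampd3 (-0.76). Other changes of sign, within 1 SD, were those of Adora2b with library totals (-0.52), among 21A mice and without 17C1, of Entpd1, Ada and Ampd3 among 17C mice, and of Entpd5 and Adk among 21A mice. The mean ratios of Nt5e, Adora2a and Slc29a1 kept their sign throughout. With TMM scaling all 5 mice had the same sign for each of these genes. Leaving out a mouse or taking 1 series could therefore not change it. Single mice did change: Nt5e in 21A7 was at -2.43 with library totals and at -0.10 scaled to cardiomyocyte markers. On the latter scale Slc29a1 in 17C1 was at 0.73. The count of 10 genes over all genes was 104 with the replicate block, 205 with DESeq2, 336 with limma voom, 635 with library totals, 38 without a filter, 19 with 5 CPM in 5 libraries, 1059 among 17C mice and 0 among 21A mice (edgeR, 1621 at an unadjusted p under 0.05), and 0 to 58 with a mouse or library left out (566 to 1561 unadjusted). Without mouse 21A7 it was 58 and without its GFP+ library 34. Without any other mouse, any other GFP+ library or the GFP- library of 17C2 it was 0, and without the GFP- library of 21A4 or 17C1 it was 1. With the mouse block the count of 104 was 10 without the block, 886 with DESeq2, 1163 with limma voom, 33 with library totals, 818 without a filter, 1510 among 17C mice and 889 among 21A mice, and 0 to 173 with a mouse left out (1163 to 2106 unadjusted), namely 173 without 17C1, 0 without 17C2, 1 without 21A4, 6 without 21A5 and 71 without 21A7. The 0 further purine genes became 1 with limma voom (Alpl), 5 with library totals and 3 among 17C mice. With the block they became 5 with DESeq2, 8 with limma voom, 1 with library totals, 5 without a filter, 1 with the stricter filter (Alpl), 4 among 17C mice and 5 among 21A mice. The Nt5e call in the edgeR block fit was lost with library totals, without the block, and without mouse 21A4, 21A5, 21A7 or 17C2. The causes were not tested. The ratios of Adora2a, Adora2b and Ada are limited by low counts, with 0 to 1 reads in some libraries, and 5 mice limit the rest.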
